A study of Mus musculus with 29 samples.

Results

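The genes described here are 37 actin-binding and SRF-responsive cytoskeleton genes of mouse C2C12 cells, of 19938 genes measured with a probe set of their own. They were chosen by name and by the known function of their proteins: binding of actin monomers, capping, nucleation, bundling and cross-linking of filaments, coupling of filaments to adhesions, the calponin and tropomyosin families, and targets of serum response factor (SRF). Each gene was read from the probe set that carries its symbol alone and had the highest mean over the 27 transfected arrays. All 37 genes were found on the array.

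C2C12 is an immortalised mouse myoblast line that fuses into myotubes when serum is withdrawn. Proliferating cells at passage 27 received 50 nM of a microRNA mimic, a synthetic duplex that acts as the mature microRNA, for 36 h. The 7 mimics, with 3 arrays each, were Let-7b, miR-365, miR-145, miR-1, miR-22, miR-34a and miR-29a. The controls were 6 arrays of cells that received the AllStar negative control oligonucleotide under the same conditions, namely 3 transfections and a technical repeat of each. One array each of untransfected C2C12 myotubes and myoblasts completes the 29 arrays. Their labels call both wild type, the myotubes terminally differentiated and the myoblasts proliferating, below full confluence. The 3 samples of a group came from 3 separate experiments on the same line, so the spread between them is that of repeated cultures of 1 line. No array of the mimics' own levels was analysed here. The labels give the dose applied, and the amount that reached the cells is not known.

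Actin filaments grow from monomers that profilins deliver and twinfilins, cofilins and cyclase-associated proteins bind. Capping protein closes the growing end, coronins and fascin shape branched and bundled networks, and filamins, actinins, talin, vinculin and zyxin tie filaments to each other and to the membrane. The pool of free actin monomers also reaches the nucleus: monomers hold back the MRTF coactivators, and when monomers are used up MRTF and SRF switch on many of the same cytoskeleton genes through a DNA element called the CArG box. In muscle, SRF targets include the contractile genes Acta2, Tagln, Cnn1 and Myl9, while Ankrd1, Ccn1 and Ccn2 also respond to YAP with TEAD factors.

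A mature microRNA recognises messenger RNAs mainly through its seed, bases 2 to 8. The mature mouse sequences of 5 of the microRNAs are shown because their seeds decide which transcripts can pair with them. They are RefSeq sequences on build GRCm38.p6 for the arm that commonly carries the name, with the seed in capitals. The labels give neither the arm nor the sequence of a mimic.
let-7b-5p: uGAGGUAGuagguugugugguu
miR-22-3p: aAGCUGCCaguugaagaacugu
miR-29a-3p: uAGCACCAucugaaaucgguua
miR-34a-5p: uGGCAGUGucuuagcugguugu
miR-365-3p: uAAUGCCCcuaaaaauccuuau
These 5 microRNAs have 5 distinct seeds. The RefSeq annotation places let-7b-5p at chr15:85707325-85707346, miR-22-3p at chr11:75463772-75463793 and miR-34a-5p at chr4:150068473-150068494, all on the plus strand, and miR-29a-3p at chr6:31062673-31062694 on the minus strand. The miR-365-3p sequence is encoded at chr11:79726467-79726488 and again at chr16:13453895-13453916, both on the plus strand.

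Most of the 37 genes were abundant. Values are log2 signals from the array, and a difference of 1 on this scale is a 2-fold change. Control means ran from 8.39 for Pfn2 to 13.91 for Acta2, with a median of 12.43, and 30 of the 37 genes lay above 12. Probe sets with no listed gene had a median of 6.67, so all 37 control means stood above that level. Array medians over all probe sets lay between 7.24 and 7.39. Signals of different genes come from different probes, and their levels are not compared with each other.

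The cells carried most markers of their line. The 8 myoblast markers, Myod1 among them, averaged 10.46 to 10.81 under the 7 mimics and 10.63 in controls. Of these, Msc stayed near the level of probe sets without a gene (6.64 to 6.80 under the mimics and 6.67 in controls). Musk was 9.12 under miR-145 and 10.55 in controls. The list averaged 10.93 in the untransfected myotube array and 10.69 in the myoblast array, so its mean does not set myoblasts apart from myotubes. The 10 myotube markers averaged 10.58 under miR-1, 10.49 under miR-34a, 10.41 under miR-22, 10.19 under miR-145, 10.14 under miR-29a, 10.09 under miR-365 and 9.48 under Let-7b, against 9.83 in controls. Every sample lay above the control range of 9.71 to 9.99 under miR-1 (10.23 to 10.76), miR-34a (10.45 to 10.55), miR-22 (10.29 to 10.51) and miR-365 (up to 10.18). The samples overlapped the controls under miR-29a (9.90 to 10.30), miR-145 (9.81 to 10.48) and Let-7b (9.09 to 9.77). The part of these markers in the results below was not tested. Endothelial markers (5.98 to 6.08 under the mimics, with the controls within that range) and macrophage markers (6.17 to 6.31 under the mimics and 6.18 in controls) averaged below the level of probe sets without a gene. The 5 fibroblast markers averaged 6.79 to 7.26 under the mimics and 6.87 in controls. They lay above the control range of 6.83 to 6.90 in every sample under Let-7b (7.19 to 7.31, with Pdgfra at 9.57 under Let-7b and 8.36 in controls), miR-22 (6.97 to 7.15) and miR-365 (6.96 to 7.13). Under miR-22 and miR-365 Dcn was higher, at 8.77 and 8.74, against 7.33 in controls. Pdgfra (8.20 and 8.13, against 8.36) and Twist2 (9.49 and 9.68, against 9.84) were lower there. Dcn was also 8.36 under miR-34a. The 6 smooth muscle markers, which include Cnn1, averaged 9.84 to 10.09 under miR-145 and 9.76 to 9.85 under miR-29a, above the control range of 9.60 to 9.63. They averaged 9.36 to 9.43 under Let-7b and 9.32 to 9.54 under miR-365, below that range. Lmod1 was 8.80 under miR-145 and 8.17 under miR-29a, against 7.86 in controls. The part of the fibroblast and smooth muscle markers in the results was not tested. Of the smooth muscle list, Myh11 (7.03 to 7.17 under the mimics and 7.15 in controls) and Myocd (6.24 to 6.76 under the mimics and 6.40 in controls) stayed near the level of probe sets without a gene, although Acta2 and Cnn1 were abundant. The 4 epithelial markers averaged 7.45 under miR-1 and 6.87 in controls, because Krt8 was 9.70 under miR-1 and 7.99 in controls and Krt18 was 7.78 under miR-1 and 7.14 in controls, while Epcam was 5.87 in both groups. The part of the keratins in the miR-1 results was not tested.

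Each mimic was compared with the control by limma, a linear model per gene with moderated variances, and a gene was called when its Benjamini-Hochberg adjusted p over all 19938 genes was under 0.05. Of the 259 pairs of a gene and a mimic, 69 were called, 48 lower and 21 higher than control. In 65 of the 69 the mimic and control values did not overlap. The other 4, all under miR-365, were Flna, Srf, Ankrd1 and Ccn2. Overlap was not counted over all genes, so the 65 do not set these genes apart. The shares of all genes called are given below for each mimic. In all, 33 genes were called under at least 1 mimic: 22 only lower, 6 only higher and 5 lower under one and higher under another. Cfl1, Actn4, Zyx and Ccn1 were called under none. The 7 comparisons share the same 3 control values, so a control value that happens to lie high or low enters all of them.

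Most lower calls fell under 3 of the mimics. Under miR-365, 17 genes were lower and 4 higher, against 8.33% and 11.7% of all genes. Under miR-1, 13 were lower and 5 higher, against 10.5% and 13.2% of all genes. Under Let-7b, 10 were lower and 0 higher, against 5.46% of all genes in each direction. For miR-365 the lower genes made up 45.9% of the 37, and for miR-1 they made up 35.1%. The other mimics had 4 to 6 calls each: miR-34a had 2 lower and 2 higher (6.06% and 5.62% of all genes), miR-22 had 3 lower and 2 higher (5.67% and 8.82%), miR-29a had 2 lower and 4 higher (4.78% and 5.54%), and miR-145 had 1 lower and 4 higher (3.00% and 3.85%). The 4 higher genes are 10.8% of the 37 under each of miR-145 and miR-29a, above the share of all genes. The median difference of the 37 genes was -0.172 under miR-365, -0.138 under Let-7b, -0.027 under miR-1, -0.022 under miR-34a, -0.017 under miR-22, 0.051 under miR-29a and 0.078 under miR-145. Over all genes the medians lay between -0.011 and 0.045. No gene was called higher under Let-7b by limma, where 18 genes had an unadjusted p under 0.05 in either direction.

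Abundant genes were called lower more often than all genes under all 7 mimics, so the shares were also set against the 707 genes with a control mean above 12, a group chosen after the values had been seen. Among these, 19.0% were lower under miR-365, 21.5% under miR-1 and 17.4% under Let-7b. Of the 30 cytoskeleton genes above 12, 14 were lower under miR-365 (46.7%), 12 under miR-1 and 9 under Let-7b. Part of the distance of the lower shares from the all-gene background is therefore shared with other abundant genes. Higher calls were rarer among the abundant genes than among all genes under every mimic but miR-1. They held for 2.26% under miR-145 and 3.54% under miR-29a, against 13.3% (4 of 30) of the abundant cytoskeleton genes under each. Under the other mimics 2 of the 30 were higher for miR-1, 2 for miR-34a, 3 for miR-365 and 0 for miR-22 and Let-7b (14.7%, 3.39%, 10.6%, 5.94% and 4.24% of the 707). Lower calls held for 1 of the 30 under miR-34a, 2 under miR-22, 1 under miR-29a and 1 under miR-145 (12.4%, 14.9%, 11.3% and 9.34% of the 707).

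Single arrays moved the counts. Under miR-365 the count of 21 became 10 without miR-365 replicate 3, 12 without control replicate 1 and 12 without control replicate 3. Under miR-34a the count of 4 became 2 without miR-34a replicate 2 or control replicate 3, and 1 without miR-34a replicate 3 or control replicate 1. Under miR-22 the count of 5 became 2 without miR-22 replicate 3, and 3 without any other of the 6 values. Under miR-29a the count of 6 became 2 without miR-29a replicate 2, miR-29a replicate 3 or control replicate 2, and 1 without control replicate 3. Under miR-145 the count of 5 became 3 without miR-145 replicate 3. For miR-1 (12 to 18, against 18) and Let-7b (8 to 10, against 10) no single value moved the count by more than 1.5 times.

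**Figure D1:**
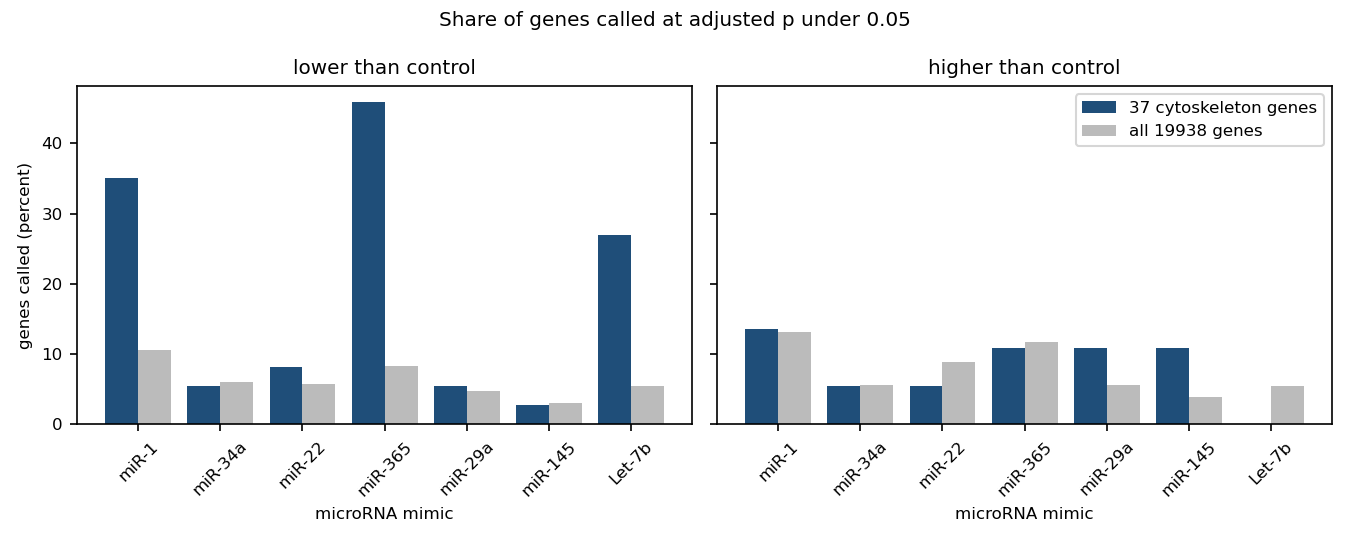
Share of genes called lower (left) and higher (right) than control at an adjusted p under 0.05, in percent, for each of the 7 mimics. Dark bars stand for the 37 cytoskeleton genes and grey bars for all 19938 genes, and the lower share under miR-365 is 45.9% against 8.33%.

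**Figure D2:**
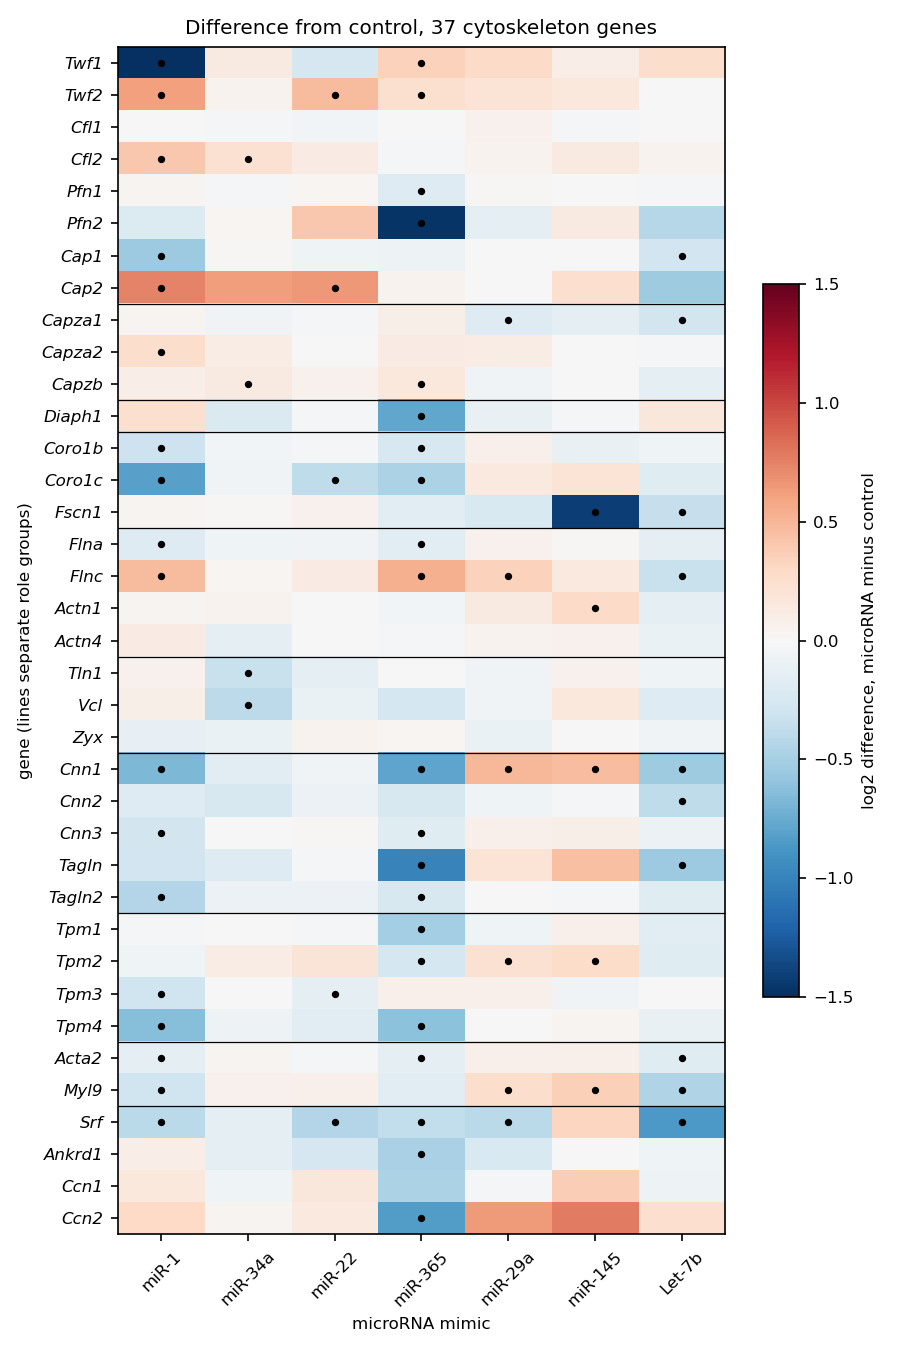
Log2 difference of each mimic from control for the 37 genes, in rows ordered by role with lines between roles, and the 7 mimics in columns. Blue is lower and red is higher than control, dots mark the 69 called differences, and the deepest blue cells are Twf1 under miR-1, Pfn2 under miR-365 and Fscn1 under miR-145.

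The monomer-binding genes held large changes, and the twinfilin paralogs moved in opposite directions under miR-1. Twf1, a twinfilin that binds actin monomers and filament ends, had log2 values of 10.93, 11.02 and 10.29 under miR-1, against 12.27, 12.25 and 12.24 in controls. All 3 miR-1 values lay below every control value. The difference was -1.51 ± 0.11 (SE, n = 3 each, limma adjusted p = 4.2e-09), a 2.84-fold lower signal. A second probe set for Twf1 gave -1.58. Under miR-22 Twf1 had 11.99, 12.04 and 11.99, below every control value, with a difference of -0.25 that did not pass (limma adjusted p = 1.6e-01). The second probe set was called lower there (-0.32, limma adjusted p = 2.0e-02). Against the mean of the other 6 mimics the Twf1 difference under miR-1 was -1.65 ± 0.09 (limma adjusted p = 1.9e-11). Under miR-365 Twf1 was 0.35 higher (limma adjusted p = 2.8e-02), a call that ended without miR-365 replicate 3 (0.29, limma adjusted p = 1.4e-01) or without control replicate 1, 2 or 3 (0.34 to 0.36, limma adjusted p = 5.8e-02 to 7.8e-02).

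Twf2, the other twinfilin, went the opposite way under miR-1. Its values were 10.67, 10.80 and 10.98 under miR-1, against 10.13, 10.26 and 10.22 in controls, without overlap. The difference was 0.61 ± 0.07 (SE, limma adjusted p = 1.4e-06). Under miR-22 Twf2 had 10.65, 10.63 and 10.74, all above the controls, with a difference of 0.47 ± 0.07 (limma adjusted p = 9.8e-05). Under miR-365 it was 0.24 higher (limma adjusted p = 2.1e-02), and that call ended without miR-365 replicate 3, control replicate 1 or control replicate 3 (0.20, 0.21 and 0.25, with limma adjusted p = 1.2e-01, 9.7e-02 and 5.0e-02). Under miR-29a it was 0.21 higher without passing (limma adjusted p = 8.4e-02, and 3.6e-02 with the replicate number as a block). No mimic had Twf2 called lower.

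The cyclase-associated proteins, which recycle actin monomers together with cofilin, differed in the same way. Cap1, the widely expressed form, had 12.85, 12.73 and 12.57 under miR-1, against 13.28, 13.21 and 13.27 in controls. The difference was -0.54 ± 0.05 (SE, limma adjusted p = 1.3e-07). Under Let-7b Cap1 had 12.96, 12.99 and 12.93, also below every control value, a difference of -0.29 ± 0.05 (limma adjusted p = 5.3e-04). Cap2, the form enriched in striated muscle, had 10.35, 11.02 and 11.28 under miR-1, against 10.31, 10.08 and 10.04 in controls. The lowest miR-1 value exceeded the highest control value by little, and the difference was 0.74 ± 0.22 (limma adjusted p = 1.4e-02). That call ended without miR-1 replicate 2 or 3 (0.67 and 0.55, limma adjusted p = 5.3e-02 and 1.2e-01) and without control replicate 2 or 3 (0.71 and 0.69, limma adjusted p = 5.0e-02 and 5.6e-02). Under miR-22 Cap2 had 10.83, 10.66 and 10.89, a difference of 0.65 ± 0.22 (limma adjusted p = 4.8e-02, and 1.0e-02 with the replicate number as a block). Without that block, the miR-22 call ended when any single value was left out (0.60 to 0.74, limma adjusted p = 5.5e-02 to 1.6e-01 over miR-22 replicates 1, 2 and 3 and control replicates 1, 2 and 3). Under miR-34a it had 10.84, 10.73 and 10.75, all above the controls, and its difference of 0.63 ± 0.22 did not pass (limma adjusted p = 6.6e-02, and 1.5e-02 with the replicate number as a block). Under Let-7b it had 9.10, 9.64 and 10.10, partly within the control values, and the difference of -0.53 ± 0.22 did not pass (limma adjusted p = 1.5e-01).

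Both profilins were lower under miR-365, Pfn2 by more than Pfn1, and of the cofilins only Cfl2 was called. Pfn2, a profilin that hands monomers to growing ends and is known best from neurons, had 6.55, 7.33 and 6.87 under miR-365, against 8.01, 8.73 and 8.42 in controls. No miR-365 value reached the lowest control value. The difference was -1.47 ± 0.22 (SE, limma adjusted p = 3.2e-05), and the lowest miR-365 value lay under the 6.67 of probe sets without a gene, so the array may not resolve how low the transcript was. Pfn1, the abundant form, had 13.61, 13.63 and 13.63 under miR-365, against 13.85, 13.82 and 13.77 in controls, a difference of -0.19 ± 0.04 (limma adjusted p = 2.5e-03). No other mimic had either profilin called. Under miR-22 Pfn2 was 0.40 higher without passing (limma adjusted p = 2.9e-01, and 1.7e-02 with the replicate block). Cfl2, the muscle cofilin, which severs filaments, had 12.52, 12.56 and 12.68 under miR-1, against 12.12, 12.25 and 12.20 in controls, a difference of 0.40 ± 0.07 (limma adjusted p = 8.0e-05). Under miR-34a it was 0.23 higher (limma adjusted p = 2.6e-02), a call lost without miR-34a replicate 2 or 3 (0.21 and 0.19, limma adjusted p = 9.0e-02 and 1.5e-01) and without control replicate 1 or 3 (0.19 and 0.23, limma adjusted p = 1.2e-01 and 6.9e-02). Cfl1, the nonmuscle cofilin, stayed between -0.04 and 0.06 of the control under all 7 mimics and was not called under any.

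**Figure D3:**
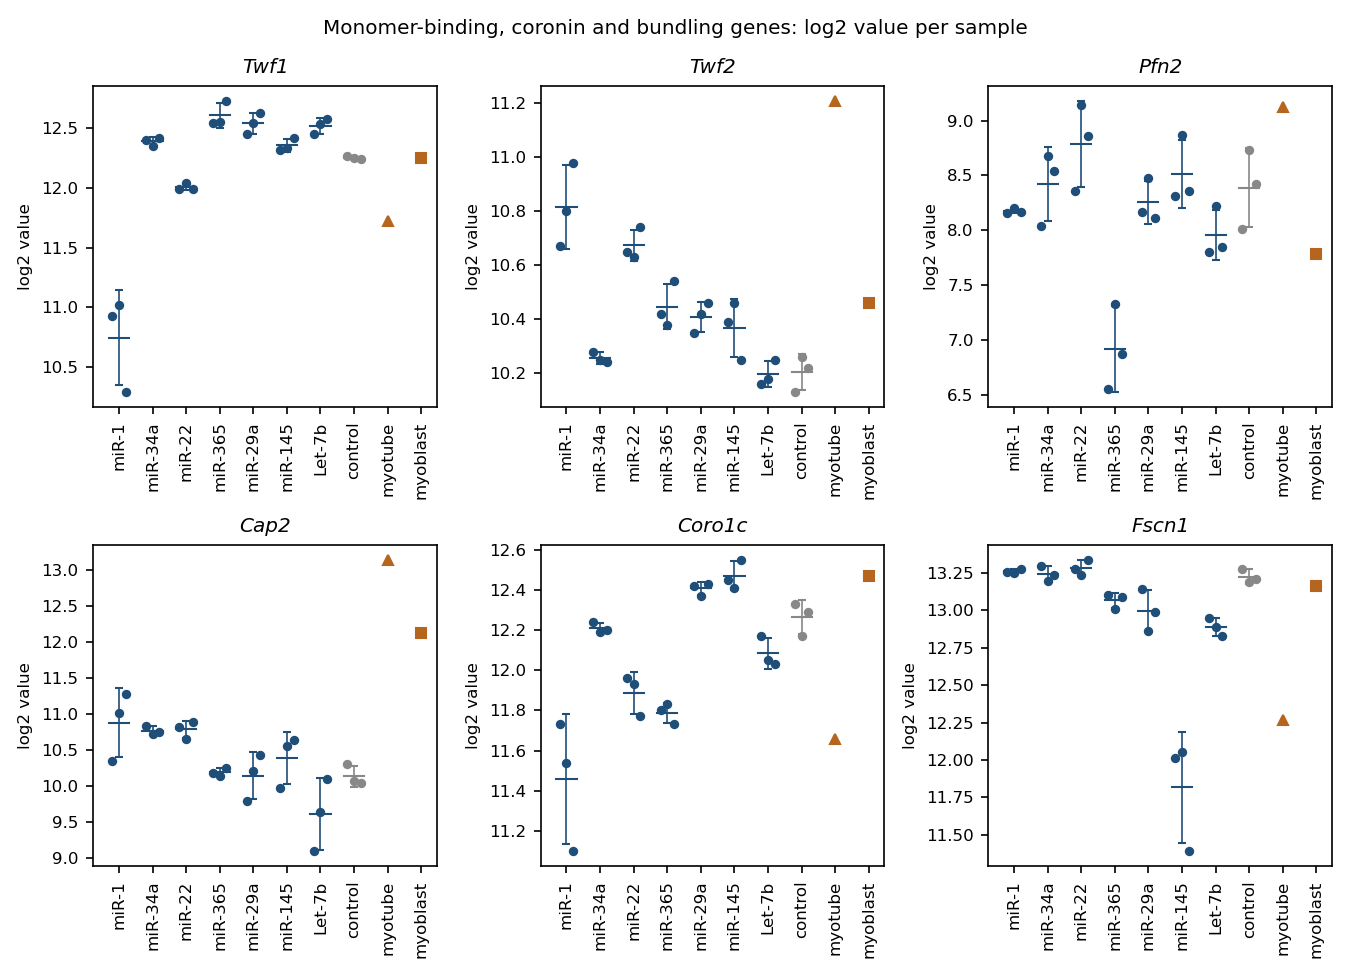
Log2 values of Twf1, Twf2, Pfn2, Cap2, Coro1c and Fscn1 in each sample: 3 points for each mimic and for the control, with the mean (line) and SD (bar), and 1 point each for untransfected myotubes (triangle) and myoblasts (square). Twf1 falls to between 10.29 and 11.02 under miR-1 alone, Pfn2 to between 6.55 and 7.33 under miR-365 and Fscn1 to between 11.39 and 12.05 under miR-145.

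Capping protein, the heterodimer that closes the growing filament end, changed by less than 0.3. Capza1 had 12.40, 12.55 and 12.53 under Let-7b, against 12.73, 12.79 and 12.79 in controls, a difference of -0.28 ± 0.05 (SE, limma adjusted p = 1.4e-03). Under miR-29a it was -0.19 (limma adjusted p = 3.1e-02), which did not hold without miR-29a replicate 1 or 3 (-0.13 and -0.19, limma adjusted p = 1.8e-01 and 6.7e-02) or control replicate 2 or 3 (-0.18 and -0.17, limma adjusted p = 1.1e-01 for both). Capza2 was 0.26 higher under miR-1 (limma adjusted p = 7.4e-03, and 8.4e-02 without miR-1 replicate 3, at 0.18). The beta subunit gene Capzb was 0.16 higher under miR-365 (limma adjusted p = 1.5e-02) and 0.14 higher under miR-34a (limma adjusted p = 5.0e-02, just under the threshold). The Capzb call under miR-365 ended without miR-365 replicate 1 or 3 or control replicate 3 (0.14 to 0.16, limma adjusted p = 5.5e-02 to 8.9e-02). Under miR-34a it ended without any one of the 6 values (0.12 to 0.16, limma adjusted p = 6.4e-02 to 2.0e-01).

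Diaph1, a formin that starts and elongates unbranched filaments, fell under miR-365. Its values were 8.91, 9.01 and 8.93 under miR-365, against 9.78, 9.60 and 9.80 in controls. The groups did not overlap, and the difference was -0.78 ± 0.11 (SE, limma adjusted p = 1.5e-05). Against the other 6 mimics it was -0.79 ± 0.08 (limma adjusted p = 1.7e-07). No other mimic had Diaph1 called against control.

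Among coronins and bundling proteins, Coro1c and Fscn1 fell under different mimics. Coro1c, a coronin of lamellipodia, had 11.73, 11.54 and 11.10 under miR-1, against 12.33, 12.17 and 12.29 in controls, a difference of -0.81 ± 0.10 (SE, limma adjusted p = 1.4e-06). It was also lower under miR-365 (11.80, 11.83 and 11.73, -0.48 ± 0.10, limma adjusted p = 9.2e-04) and under miR-22 (11.96, 11.93 and 11.77, -0.38 ± 0.10, limma adjusted p = 9.7e-03). The miR-22 call did not hold without miR-22 replicate 3 (-0.32, limma adjusted p = 7.5e-02). Coro1b, a related coronin, was lower under miR-1 (-0.31, limma adjusted p = 7.6e-05) and miR-365 (-0.24, limma adjusted p = 1.8e-03).

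Fscn1, the fascin that bundles filaments in filopodia, had 12.01, 12.05 and 11.39 under miR-145, against 13.28, 13.19 and 13.21 in controls. Every miR-145 value was more than 1 log2 unit below the lowest control value. The difference was -1.41 ± 0.10 (SE, limma adjusted p = 1.9e-08), a 2.65-fold lower signal, and it was -1.31 ± 0.08 against the other 6 mimics (limma adjusted p = 7.3e-10). Fscn1 was the only one of the 37 genes called lower under miR-145. Under Let-7b it was -0.34 (limma adjusted p = 4.0e-02), and that call ended when any one of Let-7b replicates 1, 2 and 3 or control replicates 1, 2 and 3 was left out (-0.36 to -0.31, limma adjusted p = 5.7e-02 to 1.5e-01).

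Cross-linking genes moved less, with Flnc as the exception. Flnc, the muscle filamin, had 12.64, 12.55 and 12.54 under miR-365, against 12.12, 12.04 and 11.98 in controls, a difference of 0.53 ± 0.08 (SE, limma adjusted p = 5.6e-05). Under miR-1 it had 12.39, 12.58 and 12.61, a difference of 0.48 ± 0.08 (limma adjusted p = 1.1e-04). Both mimics kept all their values above the controls. Under miR-29a it was 0.34 higher (limma adjusted p = 8.3e-03), which did not hold without miR-29a replicate 2 (0.29, limma adjusted p = 6.1e-02) or control replicate 3 (0.30, limma adjusted p = 5.3e-02). Under Let-7b it had 11.64, 11.83 and 11.67, below every control value, with a difference of -0.33 ± 0.08 (limma adjusted p = 8.4e-03). Flna, the widely expressed filamin, was -0.19 under miR-1 (limma adjusted p = 8.7e-03) and -0.17 under miR-365 (limma adjusted p = 1.9e-02). The first call ended without miR-1 replicate 3 (-0.16, limma adjusted p = 5.6e-02), and the second without miR-365 replicate 2 or 3 or control replicate 1 or 3 (-0.16 to -0.13, limma adjusted p = 6.6e-02 to 1.3e-01). The alpha-actinin gene Actn1 had 13.17, 13.18 and 13.30 under miR-145, against 13.02, 12.86 and 12.90 in controls, a difference of 0.29 ± 0.06 (limma adjusted p = 1.8e-03). Actn4, its paralog, lay between -0.13 and 0.12 of the control under all mimics and was not called.

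The adhesion genes were called under miR-34a alone. Tln1, which encodes talin, the link from integrins to actin, had 11.69, 11.62 and 11.54 under miR-34a, against 12.02, 11.85 and 11.97 in controls, a difference of -0.33 ± 0.08 (SE, limma adjusted p = 6.0e-03). Vcl, which encodes vinculin, talin's partner, had 12.02, 11.77 and 11.61 under miR-34a, against 12.34, 12.07 and 12.17 in controls, a difference of -0.39 ± 0.09 (limma adjusted p = 6.8e-03). In both genes every miR-34a value lay below every control value. The Vcl call ended without miR-34a replicate 3 (-0.30, limma adjusted p = 6.9e-02) or control replicate 1 (-0.32, limma adjusted p = 5.2e-02). Under miR-365 Vcl was -0.26 without passing (limma adjusted p = 5.6e-02, and 2.5e-02 with the replicate block). Against the other 6 mimics the differences under miR-34a were -0.31 ± 0.06 for Tln1 (limma adjusted p = 6.9e-04) and -0.34 ± 0.07 for Vcl (limma adjusted p = 2.1e-03). Zyx, a mechanosensitive adhesion protein, stayed between -0.12 and 0.05 and was not called under any mimic.

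Srf itself, the transcription factor behind many of these genes, was lower than control under 5 of the 7 mimics. Its values were 10.59, 10.53 and 10.44 under Let-7b, against 11.58, 11.26 and 11.32 in controls, with no overlap and a difference of -0.86 ± 0.13 (SE, limma adjusted p = 1.0e-04). Against the other 6 mimics the Let-7b difference was -0.62 ± 0.10 (limma adjusted p = 8.5e-05). In the model without the replicate block, the other 4 differences were close to the threshold. Srf had 11.05, 11.03 and 10.84 under miR-1 (-0.41, limma adjusted p = 2.4e-02) and 11.15, 10.88 and 10.79 under miR-22 (-0.44, limma adjusted p = 2.4e-02). It had 11.36, 10.85 and 10.82 under miR-365 (-0.37, limma adjusted p = 4.8e-02) and 11.24, 10.80 and 10.88 under miR-29a (-0.41, limma adjusted p = 4.8e-02). Only the miR-365 values overlapped the controls. With the replicate number as a block, the limma adjusted p of Srf was 3.0e-04 under miR-22 and 8.6e-04 under miR-29a.

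Control replicate 1, with 11.58, was the highest of the 3 control values and enters all of these Srf differences. Replicate 1 was also the highest under every mimic but miR-145, and the fits that leave out a value had no replicate block. Without control replicate 1, Srf was no longer called under miR-1 (-0.31, limma adjusted p = 1.4e-01), miR-22 (-0.35, 1.3e-01), miR-365 (-0.28, 2.3e-01) or miR-29a (-0.32, 2.3e-01). The calls also ended without miR-1 replicate 3 (-0.35, limma adjusted p = 1.2e-01), without miR-22 replicate 2 or 3 (-0.41 and -0.37, 7.5e-02 and 1.4e-01) and without miR-365 replicate 2 or 3 or control replicate 3 (-0.29, -0.28 and -0.41, 1.9e-01, 2.5e-01 and 7.4e-02). Under miR-29a the call ended without miR-29a replicate 2 or 3 (-0.32 and -0.36, limma adjusted p = 2.3e-01 and 1.9e-01) or control replicate 2 or 3 (-0.48 and -0.44, 5.5e-02 and 8.5e-02). The Let-7b call held without any single value. Under miR-34a Srf had 11.43, 11.18 and 11.16, overlapping the controls, and was not called (-0.13, limma adjusted p = 7.2e-01). Under miR-145 it had 11.73, 11.61 and 11.76, all above the controls, with a difference of 0.32 ± 0.13 that did not pass (limma adjusted p = 1.8e-01). Against the other 6 mimics, a comparison that uses no control array, Srf was 0.75 ± 0.10 higher under miR-145 (limma adjusted p = 1.5e-05).

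The promoter of Srf is shown with those of Cnn2 and Myl9 because they hold a CArG box, the element SRF binds, within 250 bases before the annotated start. The sequences are RefSeq's on build GRCm38.p6, written in the direction of the gene, with the CArG box in capitals: CC, then 6 letters that are each A or T, then GG. Srf lies at chr17:46556163-46556412 on the minus strand, Cnn2 at chr10:79988350-79988599 on the plus strand and Myl9 at chr2:156775214-156775463 on the plus strand.
Srf: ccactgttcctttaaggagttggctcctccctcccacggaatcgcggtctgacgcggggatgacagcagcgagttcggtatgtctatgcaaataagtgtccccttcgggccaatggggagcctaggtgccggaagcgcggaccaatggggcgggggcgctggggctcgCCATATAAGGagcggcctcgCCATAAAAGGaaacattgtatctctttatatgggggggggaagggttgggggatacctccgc
Cnn2: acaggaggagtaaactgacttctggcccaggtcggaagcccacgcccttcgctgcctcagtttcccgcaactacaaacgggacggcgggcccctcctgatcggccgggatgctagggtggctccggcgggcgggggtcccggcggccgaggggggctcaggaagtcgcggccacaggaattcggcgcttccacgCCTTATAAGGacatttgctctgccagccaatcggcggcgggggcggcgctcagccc
Myl9: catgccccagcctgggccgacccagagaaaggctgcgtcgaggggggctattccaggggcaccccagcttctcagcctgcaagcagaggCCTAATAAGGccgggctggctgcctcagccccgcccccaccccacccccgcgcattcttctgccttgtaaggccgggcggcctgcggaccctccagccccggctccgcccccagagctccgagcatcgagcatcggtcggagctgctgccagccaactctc
The boxes lie at positions -82 to -73 and -62 to -53 before the start of Srf, at -56 to -47 for Cnn2 and at -161 to -152 for Myl9. Vcl also holds one at -227 to -218. In windows of 300 bases (250 before and 50 after the start), a CArG box was present in 535 of 32851 windows of all genes (1.63%), and in 4 of the 34 windows that matched 32 of the 37 genes (11.8%). No window matched Twf2, Coro1b, Diaph1, Tagln or Ccn2, so their promoters were not searched for either motif. The TEAD motif, written GGAATG and sought on both strands after the values had been seen, was in 4817 windows of all genes (14.7%) and in 11 of the 34 (32.4%), those of 10 genes. Tagln2 and Ankrd1 have this motif at more than 1 position, Flnc has 1 match that falls in both of its overlapping windows, and Vcl is the only matched gene with both motifs. A match describes letters in a window, and SRF targets were among the criteria for the 37 genes.

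The calponin family and the smooth muscle contractile genes held both lower and higher calls. Of these 7 genes, 5 were called lower under miR-1, 5 under miR-365 and 5 under Let-7b (10.5%, 8.33% and 5.46% of all genes). Under miR-29a 2 were called higher and under miR-145 also 2 (5.54% and 3.85% of all genes). Cnn1, the smooth muscle calponin that binds actin and myosin, had 11.87, 11.68 and 11.42 under miR-365, against 12.45, 12.37 and 12.52 in controls, a difference of -0.79 ± 0.12 (SE, limma adjusted p = 3.6e-05). Under miR-1 it had 11.87, 11.93 and 11.53 (-0.67 ± 0.12, limma adjusted p = 1.5e-04). Under Let-7b it had 11.86, 12.14 and 11.76 (-0.53 ± 0.12, limma adjusted p = 4.1e-03). All 9 of these values lay below every control value. Under miR-29a it had 12.75, 13.05 and 13.04 (0.50 ± 0.12, limma adjusted p = 6.8e-03) and under miR-145 it had 12.78, 12.86 and 13.09 (0.46 ± 0.12, limma adjusted p = 1.9e-02), all above the controls. The miR-145 call did not hold without miR-145 replicate 3 (0.37, limma adjusted p = 1.3e-01) or without control replicate 1 or 2 (0.46 and 0.42, 5.2e-02 and 8.5e-02). Against the other 6 mimics Cnn1 was 0.79 ± 0.09 higher under miR-29a (limma adjusted p = 1.4e-06) and 0.74 ± 0.09 higher under miR-145 (limma adjusted p = 4.9e-06).

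Tagln, or SM22-alpha, an early smooth muscle marker of the same family, had 11.82, 11.42 and 11.04 under miR-365, against 12.38, 12.39 and 12.52 in controls. The groups did not overlap and the difference was -1.0 ± 0.15 (SE, limma adjusted p = 3.1e-05). Under Let-7b it had 11.66, 12.12 and 11.90 (-0.54 ± 0.15, limma adjusted p = 1.9e-02), a call that ended without Let-7b replicate 1 or 3 (-0.42 and -0.54, 1.2e-01 and 5.9e-02) or control replicate 3 (-0.49, 8.4e-02). Under miR-1 the difference of -0.29 did not pass (limma adjusted p = 1.8e-01), nor did that of 0.45 under miR-145 (limma adjusted p = 7.2e-02). Tagln2, the widely expressed paralog, had 12.92, 12.77 and 12.53 under miR-1, against 13.25, 13.15 and 13.14 in controls (-0.44 ± 0.08, limma adjusted p = 2.2e-04). Under miR-365 Tagln2 was -0.24 (limma adjusted p = 3.4e-02), lost without miR-365 replicate 2 or 3 or control replicate 1, 2 or 3 (-0.26 to -0.16, limma adjusted p = 5.8e-02 to 2.6e-01).

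The remaining calponins changed less. Cnn2 was called under Let-7b alone, with 12.53, 12.61 and 12.43, against 13.01, 12.81 and 12.88 in controls (-0.38 ± 0.09, limma adjusted p = 4.7e-03). Its differences of -0.24 under miR-365 and -0.24 under miR-34a did not pass (limma adjusted p = 5.4e-02 and 7.6e-02, and 8.1e-03 and 1.1e-02 with the replicate block). Cnn3 was -0.27 under miR-1 (limma adjusted p = 1.3e-03) and -0.18 under miR-365 (limma adjusted p = 3.1e-02). The Cnn3 call under miR-365 ended without miR-365 replicate 1 or 3 or control replicate 1, 2 or 3 (-0.19 to -0.15, limma adjusted p = 5.5e-02 to 1.6e-01).

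Myl9, the regulatory light chain of smooth muscle and nonmuscle myosin, had 12.56, 12.86 and 12.50 under Let-7b, against 12.98, 13.17 and 13.12 in controls. The difference was -0.45 ± 0.08 (SE, limma adjusted p = 7.1e-04). Under miR-1 it was -0.30 (limma adjusted p = 9.7e-03), lost without miR-1 replicate 3 (-0.22, 9.1e-02) or control replicate 2 (-0.26, 5.6e-02). Under miR-145 it had 13.37, 13.45 and 13.51 (0.36 ± 0.08, limma adjusted p = 9.6e-03), lost without miR-145 replicate 3 (0.32, 5.8e-02) or control replicate 1 (0.30, 5.9e-02). Under miR-29a it was 0.26 (limma adjusted p = 4.8e-02), lost without any one of miR-29a replicates 1, 2 and 3 or control replicates 1, 2 and 3 (0.21 to 0.30, limma adjusted p = 5.1e-02 to 2.1e-01). Acta2, the smooth muscle actin, changed by less than 0.2. It was -0.18 under Let-7b, -0.14 under miR-365 and -0.13 under miR-1 (limma adjusted p = 7.3e-03, 3.1e-02 and 3.8e-02). The Let-7b call ended without Let-7b replicate 3 (-0.15, limma adjusted p = 6.6e-02). The miR-365 call ended without miR-365 replicate 2 or 3 or control replicate 1, 2 or 3 (-0.14 to -0.11, 6.9e-02 to 1.6e-01), and the miR-1 call without miR-1 replicate 3 or control replicate 1, 2 or 3 (-0.13 to -0.07, 7.9e-02 to 3.3e-01).

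**Figure D4:**
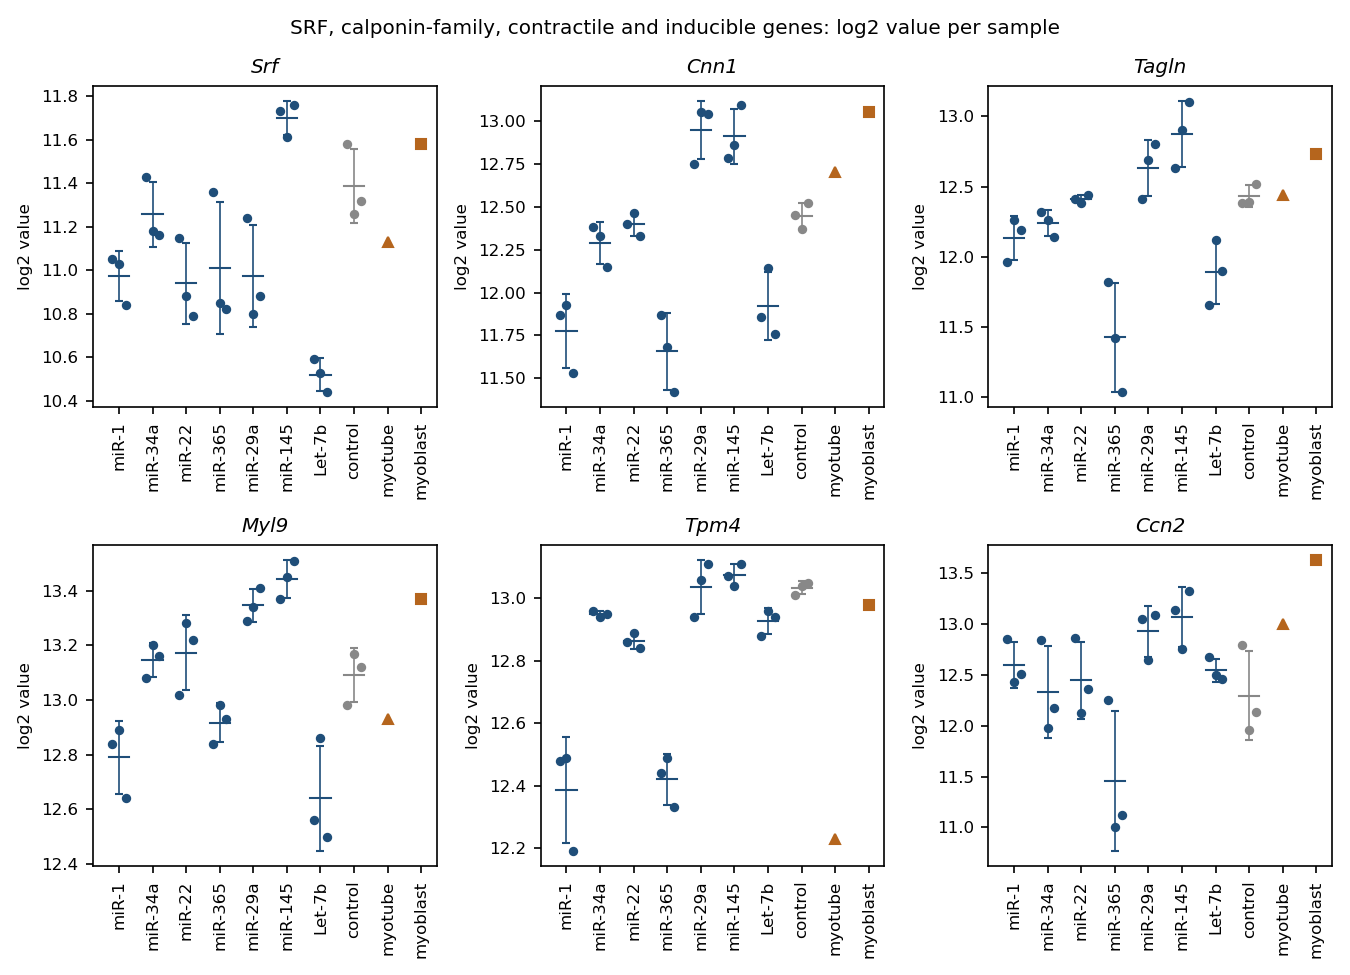
Log2 values of Srf, Cnn1, Tagln, Myl9, Tpm4 and Ccn2 in each sample, with 3 points, mean (line) and SD (bar) for each mimic and the control, and 1 point each for untransfected myotubes (triangle) and myoblasts (square). Cnn1 lies below every control value under miR-1, miR-365 and Let-7b and above every control value under miR-29a and miR-145, and Srf is lowest under Let-7b, between 10.44 and 10.59.

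The tropomyosins, coiled-coil proteins that lie along filaments and set which other proteins can bind, were called lower in 3 of 4 genes under miR-365 and in 2 of 4 under miR-1 (8.33% and 10.5% of all genes). Tpm4, a nonmuscle form, had 12.48, 12.49 and 12.19 under miR-1, against 13.01, 13.04 and 13.05 in controls (-0.64 ± 0.06, SE, limma adjusted p = 8.8e-08). Under miR-365 it had 12.44, 12.49 and 12.33 (-0.61 ± 0.06, limma adjusted p = 2.0e-07). Both were without overlap. Tpm1 was lower under miR-365 alone, with 12.48, 12.43 and 12.14, against 12.91, 12.81 and 12.87 in controls (-0.51 ± 0.07, limma adjusted p = 5.5e-06).

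Tpm2, a muscle form, went both ways. It was -0.26 under miR-365 (limma adjusted p = 5.0e-03, and 5.9e-02 without miR-365 replicate 3, at -0.18). It was 0.28 higher under miR-145 (limma adjusted p = 8.1e-03, and 5.8e-02 without control replicate 3, at 0.25) and 0.23 higher under miR-29a (limma adjusted p = 2.3e-02). The miR-29a call ended without miR-29a replicate 2 or 3 or control replicate 2 or 3 (0.19 to 0.22, limma adjusted p = 7.2e-02 to 1.3e-01). Under miR-22 Tpm2 was 0.19 without passing (limma adjusted p = 5.1e-02, and 5.6e-03 with the replicate block). Tpm3 was -0.30 under miR-1 (limma adjusted p = 5.2e-05). It was -0.15 under miR-22 (limma adjusted p = 3.9e-02), which ended without miR-22 replicate 1 or 3 or control replicate 1, 2 or 3 (-0.16 to -0.13, limma adjusted p = 6.9e-02 to 1.7e-01). Its 4 probe sets disagreed: under miR-1 the other 3 gave 0.16 (not called), -0.32 and -0.25. Under miR-22 these 3 gave -0.09, -0.26 and -0.18, of which only -0.26 was called. Under miR-365 the probe set used gave 0.08 without a call. The other 3 gave 0.28, -0.03 and -0.02 there, and only 0.28 was called (limma adjusted p = 3.9e-02). Genes of this family are spliced into many forms, and the array value of a gene pools those its probes cover.

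The inducible genes Ankrd1, Ccn1 and Ccn2 varied between the controls themselves, with SDs of 0.21, 0.25 and 0.44. Ccn2, a secreted matricellular protein also known as CTGF, had 12.25, 11.00 and 11.12 under miR-365, against 12.79, 11.96 and 12.13 in controls. In both groups the first replicate was the highest, the groups overlapped, and the difference was -0.84 ± 0.27 (SE, limma adjusted p = 3.1e-02, and 3.3e-04 with the replicate block). Within each numbered pair the miR-365 value was the lower one. The call without the block ended without miR-365 replicate 2 or 3 (-0.61 and -0.67, limma adjusted p = 1.8e-01 and 1.7e-01) or control replicate 1 (-0.59, 1.9e-01). Against the other 6 mimics the difference under miR-365 was -1.20 ± 0.21 (limma adjusted p = 1.1e-04).

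Under miR-29a Ccn2 had 13.05, 12.64 and 13.09 (0.64 ± 0.27, limma adjusted p = 1.7e-01, and 6.9e-03 with the replicate block). Under miR-145 it had 13.13, 12.75 and 13.32 (0.78 ± 0.27, limma adjusted p = 9.4e-02), and 0.68 ± 0.21 against the other 6 mimics (limma adjusted p = 2.3e-02). Ankrd1, a stretch-responsive muscle ankyrin repeat protein, had 12.28, 11.57 and 11.67 under miR-365, against 12.56, 12.17 and 12.25 in controls, with overlap (-0.49 ± 0.16, limma adjusted p = 3.5e-02). That call ended without miR-365 replicate 2 or 3 (-0.36 and -0.41, limma adjusted p = 1.9e-01 and 1.7e-01) or control replicate 1 or 3 (-0.37 and -0.53, 1.8e-01 and 5.8e-02). Ccn1, a relative of Ccn2 also known as CYR61, was -0.47 under miR-365 and did not pass (limma adjusted p = 9.9e-02, and 2.4e-03 with the replicate block).

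Comparing each mimic with the mean of the other 6 uses no control array. By this measure miR-365 had 18 genes lower and 5 higher (11.3% and 15.8% of all genes), miR-1 had 13 lower and 10 higher (13.7% and 15.0%) and Let-7b had 14 lower and 3 higher (10.3% and 8.19%). The opposite lean appeared under miR-145, with 1 lower and 16 higher (8.59% and 10.3%), and under miR-29a, with 2 lower and 14 higher (8.26% and 8.80%). For miR-34a the counts were 4 lower and 5 higher (8.18% and 5.90%), and for miR-22 they were 1 lower and 4 higher (6.33% and 9.45%). The comparisons are not independent, since each mimic is part of the mean that the others are set against, and a gene low under 3 mimics is thereby high under the rest. Without miR-145 replicate 3 the miR-145 count of 17 became 11, and without miR-29a replicate 2 the miR-29a count of 16 became 10. Without miR-1 replicate 3 the miR-1 count of 23 became 15. The miR-34a count of 9 became 5 or 3 without miR-34a replicate 2 or 3, and the miR-22 count of 5 became 3 or 2 without miR-22 replicate 1 or 2. An F test over all 7 comparisons with the control called 34 of the 37 genes, against 49.4% of all genes. The exceptions were Cfl1, Zyx and Ankrd1 (limma adjusted p = 1.0e-01, 7.2e-01 and 6.9e-02).

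Other genes of the actin system, from 8 lists with 127 names of which 117 were measured, were counted in the same fit, with the shares of all genes in parentheses. Under miR-365, 24 were lower and 14 higher (8.33% and 11.7%), the higher count being near that share. Under miR-1, 22 were lower and 20 higher (10.5% and 13.2%), and under Let-7b, 20 were lower and 6 higher (5.46% in each direction). Under miR-145 there were 7 lower and 19 higher (3.00% and 3.85%). For miR-34a there were 10 lower and 7 higher (6.06% and 5.62%), for miR-22 there were 12 and 8 (5.67% and 8.82%) and for miR-29a 10 and 11 (4.78% and 5.54%). Focal adhesion proteins were lower in 6 of 20 under both miR-365 and Let-7b (8.33% and 5.46% of all genes), and in 5 of 20 under miR-1 (10.5%). Actins and monomer buffers were lower in 5 of 9 under miR-1, against the same 10.5%. These were lists with many lower calls. Of the 19 SRF cofactors and inducible targets, 0 were lower and 1 higher under Let-7b (5.46% in each direction). Under miR-1, 1 was lower and 2 higher (10.5% and 13.2%), and under miR-365, 3 were lower and 1 higher (8.33% and 11.7%).

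By their largest changes, the wider lists added regulators of the same machinery. Under miR-1, Arpc1a, a subunit of the Arp2/3 complex that starts branched filaments, had 9.19, 9.14 and 8.76, against 10.35, 10.34 and 10.34 in controls (-1.31 ± 0.09, limma adjusted p = 1.4e-09). Lims1, which encodes the adhesion adaptor PINCH-1, was -1.40 ± 0.09 under miR-365 (limma adjusted p = 1.0e-10). Ssh2, a phosphatase that activates cofilin, was -1.01 ± 0.11 under miR-145 (limma adjusted p = 2.3e-06).

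Limk1, a kinase that inactivates cofilin, was -0.78 ± 0.13 under miR-22 (limma adjusted p = 1.6e-04), while Lats2, a kinase that restrains YAP, was 0.59 higher (limma adjusted p = 1.2e-03). Wwtr1, which encodes TAZ, the relative of YAP, was -0.89 ± 0.10 under miR-29a (limma adjusted p = 2.7e-06). Under Let-7b the integrin gene Itgav was -0.84 ± 0.09 (limma adjusted p = 8.2e-07) and Ccn3 was 0.59 higher (limma adjusted p = 5.0e-03). Ccn3 was dim, at 7.05 under Let-7b and 6.47 in controls. Under miR-34a the receptor kinase gene Axl was -0.80 ± 0.09 (limma adjusted p = 9.9e-07) and the formin gene Daam2 was 0.64 higher (limma adjusted p = 5.1e-03).

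Untransfected myotubes and myoblasts were represented by 1 array each, so their difference has no replicate check and no test was made. Of the 37 genes, 27 were lower and 10 higher in the myotube array, with a median difference of -0.29. The signs of all genes were not counted. At least 2-fold higher were Pfn2 (9.12 in myotubes and 7.78 in myoblasts, 1.33) and Cap2 (13.15 in myotubes and 12.13 in myoblasts, 1.03), against 2.71% of all genes. At least 2-fold lower was Tagln2 (12.22 in myotubes and 13.22 in myoblasts, -1.0), against 2.01% of all genes. The next largest were Fscn1 (12.27 in myotubes and 13.16 in myoblasts, -0.89), Flna (12.33 in myotubes and 13.19 in myoblasts, -0.86) and Coro1c (11.66 in myotubes and 12.47 in myoblasts, -0.81). Twf2 (0.75) and the muscle forms Cap2, Cfl2 (0.51), Tpm2 (0.51) and Flnc (0.43) were higher in the myotube array, and the widely expressed forms Cap1 (-0.39), Twf1 (-0.53), Cfl1 (-0.26), Tpm4 (-0.75) and Flna (-0.86) were lower. Besides Pfn2, the other genes higher there were Capza2 (0.29), Ankrd1 (0.18), Capzb (0.11) and Diaph1 (0.02), so the higher genes were not muscle forms alone.

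The genes called under miR-1 had the sign of the myotube array throughout, a count made after the values had been seen and given without a test. All 13 genes lower under miR-1 were lower in the myotube array than in the myoblast array, and all 5 higher genes, Twf2, Cfl2, Cap2, Capza2 and Flnc, were higher there. Over all genes, 77.5% of those lower and 78.0% of those higher under miR-1 had the same sign in the myotube array, so the 37 genes share this with the rest. Under miR-365, 13 of 17 lower genes and 3 of 4 higher genes had the myotube sign (64.0% and 71.2% over all genes), and under Let-7b 9 of 10 lower genes did (47.2% over all genes). Of the 37 genes, 27 were lower in the myotube array whatever the mimic, so most of them would share that sign when called lower. Under miR-34a the sign held for 2 of 2 lower and 2 of 2 higher genes (64.1% and 70.3% over all genes). Under miR-22 it was 3 of 3 and 2 of 2 (61.6% and 70.3%), and under miR-29a 2 of 2 and 2 of 4 (53.7% and 64.5%). Under miR-145 it was 1 of 1 lower and 1 of 4 higher genes (49.0% and 60.2% over all genes), since Cnn1, Myl9 and Actn1 were higher under miR-145 and lower in the myotube array. The myotube markers averaged 12.67 in the myotube array and 11.63 in the myoblast array, above every transfected group, so the untransfected myoblast array already carried more muscle gene signal than the control transfections. In 22 of the 37 genes all 3 control values lay below the myoblast array, and in 7 all lay above it. These counts were not made over all genes, so they do not set the 37 genes apart. The median difference of the control mean from the myoblast array was -0.18. The labels give passage 27 for the untransfected cells too. Any other difference in their culture or handling, confluence included, cannot be told apart from transfection.

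**Figure D5:**
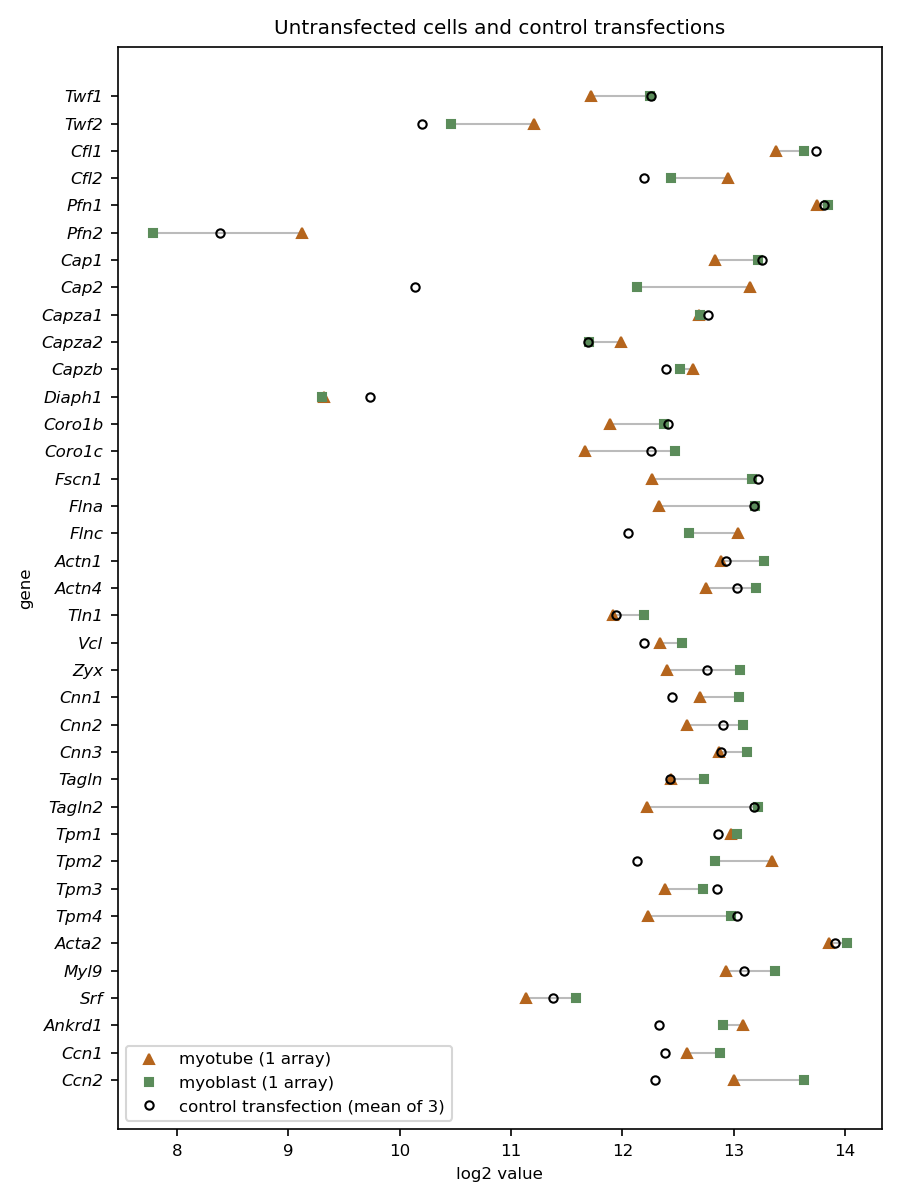
Log2 value of each of the 37 genes in the untransfected myotube array (triangle), the untransfected myoblast array (square) and the control transfections (open circle, mean of 3). Pfn2 and Cap2 stand furthest to the right of their myoblast values, and 27 of the 37 triangles lie to the left of the squares.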

How the data were processed

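The deposited values were log2 signals of 35556 probe sets on 29 arrays. Per the submitters' processing notes, these came from Affymetrix Expression Console 1.1 and RMA, which corrects background, equalises array distributions and summarises probes. Filters and a genome build are not given in the sources used here. Genes were named from the platform annotation: 21789 probe sets carried 1 symbol, 1621 several and 12146 none, and the brightest probe set with 1 symbol stood for each of 19938 genes. A control value is the mean of a control array and its like-numbered technical repeat. This gave 24 values in 8 groups, 3 per group.

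One linear model per gene, with group as the only term, was fitted in limma 3.58.1 (R 4.3.3) with variances moderated along a trend with expression. Tests were 2-sided, and p-values were adjusted by Benjamini-Hochberg over all genes within a comparison, with a threshold of 0.05. The number of arrays limits the precision. Alternatives were the replicate block, no technical repeats, all 27 arrays with a block for the repeats, separate fits, no variance trend, a filter on dim genes, further quantile normalization, every probe set on its own, and leaving out each value.

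Replicate numbers were taken to pair samples with the controls where the deviations from the group mean correlated above 0.1 in all 3 pairs, which held for miR-22, miR-29a, miR-34a and miR-365 and not for miR-1, miR-145 and Let-7b. For those 4 mimics the blocked p is given beside a result whose call it changes, and beside some calls that ended when a value was left out. Over all groups, samples of 1 number had a mean r of 0.24 and samples of different numbers -0.12.

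The 37 genes, the lists and the tests were chosen with earlier results of these data known. Given with every value were up to 4 largest decreases and 4 largest increases per mimic among called genes with a difference of at least 0.4, the 6 largest differences between myotubes and myoblasts, and Srf. Of the wider lists, the largest called decrease and increase per mimic were named, except that the largest increase under 4 mimics is not reported here. Other genes and values were added after they had been seen.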

Additional observations from a re-analysis of the deposited data

How the results depend on the processing

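The 23 called differences of at least 0.4 that were described by rule were recomputed under 299 alternatives in all, of which 265 kept the call, 34 lost it and 0 changed direction. In 16 of the 23 the call was never lost. Cap2 under miR-1 and miR-22, Srf under miR-22 and miR-29a, Ccn2 under miR-365, Cnn1 under miR-145 and Tagln under Let-7b lost it at least once. Beyond left-out values, the call for Srf under miR-29a ended without technical repeats, in a fit of that mimic and the control alone, without the variance trend and after quantile normalization (limma adjusted p = 0.051 to 0.064). That for Cap2 under miR-22 ended in the last 2 of these (0.053 and 0.058) and that for Ccn2 under miR-365 in the fit of that mimic and the control alone (0.087).

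With the replicate number as a block, the count of called cytoskeleton genes became 10 (from 5) for miR-145 and 17 (from 10) for Let-7b against control. It became 17 (from 9) for miR-34a against the other mimics, and it stayed within 1.5 times elsewhere. The count over all genes against control rose with the block too, from 1365 to 2444 for miR-145 and from 2177 to 3298 for Let-7b. The rises for these mimics were therefore not confined to the cytoskeleton genes. Paired by number in this way, Srf under miR-145 passed (limma adjusted p = 1.1e-02). Among others, Ccn2 and Tagln under miR-145 (limma adjusted p = 2.1e-03 and 4.6e-02) and Cap2 under Let-7b (4.5e-02) then passed too. The pairs with the controls correlated at 0.36, -0.04 and 0.22 for miR-145 and at 0.14, 0.08 and 0.12 for Let-7b. These 2 mimics thus missed the rule for pairing given above, although 23 of the 24 values, in all groups, had their highest correlation within their own number. Whether their numbers mark pairs is not settled. Without the variance trend the count became 2 (from 4) for miR-34a, 3 (from 5) for miR-22 and 3 (from 6) for miR-29a. At a fold of 1.5, 10 genes (from 3) separated the myotube from the myoblast array.

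Leaving out 1 value gave 12 to 18 called genes for miR-1, 1 to 4 for miR-34a, 2 to 3 for miR-22, 10 to 22 for miR-365, 1 to 5 for miR-29a, 3 to 6 for miR-145 and 8 to 10 for Let-7b against control. Against the other mimics it gave 15 to 23 for miR-1, 3 to 7 for miR-34a, 2 to 4 for miR-22, 17 to 23 for miR-365, 10 to 15 for miR-29a, 11 to 16 for miR-145 and 14 to 16 for Let-7b. All 37 genes passed a filter that removed the dimmest 40% of genes. The cause of these shifts was not tested, apart from the smaller number of values in the last kind. Signal close to that of probe sets without a gene limits what can be said of Pfn2 under miR-365.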
